A study of Mus musculus with 8 samples.

Results

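The interaction of a human LXRα transgene with the LXR agonist T0901317 was examined in mouse liver RNA, as the difference between the agonist's effect in LXRα livers and its effect in GFP control livers. All 8 arrays of the series entered it, 2 in each of 4 groups, 1 array per mouse. Every mouse, of C57B6 background, lacked the low density lipoprotein receptor, had been fed a Western diet for 12 weeks and was 8 months old. At the age of 10 weeks each had been given adeno-associated virus (AAV2.8) that carried GFP or human LXR alpha behind the human thyroxine binding globulin promoter, which restricts expression to the liver. For 3 days before collection each mouse was injected intraperitoneally with T0901317 at 5 mg/kg or with vehicle. Groups are named by transgene and injection, such as GFP vehicle or LXRα T0901317. The labels do not say whether the mice of a group came from separate litters or cages, so p-values measure only the spread between these 8 samples.

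LXRα is a nuclear receptor that forms a heterodimer with the retinoid X receptor and is switched on by oxysterols. In liver it drives genes of sterol export, bile acid synthesis and fatty acid synthesis. T0901317 is a synthetic agonist of LXR that also binds the pregnane X receptor. An interaction of 0 on the log2 scale means that transgene and agonist multiplied a gene's level independently of each other. A positive interaction means that LXRα T0901317 livers lay above the level that the 2 separate differences predict, and a negative one means that they lay below it.

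Of 15838 probe sets tested, limma called 1 for the interaction at an adjusted p under 0.05, which is 0.00631%. It measures Hsd3b5, and the next smallest adjusted p was 0.137. At an unadjusted p under 0.05 there were 755 probe sets, where 5% of those tested is 792. The median interaction was -0.02 and the median SE was 0.351. Hsd3b5 alone passed the test for non-additivity, and the other genes are described by their values. P-values named unadjusted are limma's, and serve to rank genes.

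LXRα T0901317 had the widest spread: its 2 arrays differed by a median of 0.325 on the log2 scale, against 0.185 to 0.22 in the other groups. The β-actin ratio of 3' to 5' signal, which is higher in degraded RNA, reached 36.3 for LXRα T0901317 replicate 2 but only 2.75 for replicate 1. GFP T0901317 had 7.56 and 11.04, and every vehicle array was between 2.08 and 3.08. The same ratio of Dap, a control transcript that is not from liver, was 7.663 on LXRα T0901317 replicate 2. It was 2.219 and 4.185 in GFP T0901317 and 0.925 to 1.572 on the other arrays. Whether the ratios reflect the liver RNA or its labelling was not tested. Both GFP T0901317 arrays thus had high ratios, so no interaction can be computed from arrays of low ratio alone. Hsd3b5, Ly6d, Pdk4 and the medians of several lists are therefore also given with LXRα T0901317 replicate 1 or replicate 2 alone. The part of RNA quality or labelling in the results was not tested beyond these values and a fit with the β-actin ratio as a term.

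Hsd3b5, a hydroxysteroid dehydrogenase with male-biased expression in mouse liver, was high in LXRα vehicle livers and near the detection floor elsewhere. The gene lies at chr3:98618636-98645534 (GRCm38.p6, RefSeq). Its deposited intensities were 8.10 and 6.82 in GFP vehicle, 8.40 and 6.59 in GFP T0901317, 846 and 1079 in LXRα vehicle, and 5.75 and 15.0 in LXRα T0901317 livers. Both LXRα vehicle arrays stood above the other 6, which lay between 5.75 and 15.0. The T0901317 difference was 0.03 in GFP livers and -6.49 in LXRα livers, so that the interaction was -6.52 (SE 0.45, adjusted p = 0.0314). The separate differences predict an intensity of 973 for LXRα T0901317 livers, against an observed geometric mean of 10.6. The difference was of similar size with either LXRα T0901317 array, -7.02 with replicate 1 and -6.02 with replicate 2. Since 6 arrays lay at or near the floor of 7.50, the size depends on that floor and is no exact fold.

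The Hsd3b5 interaction was -7.02 to -5.23 in the 19 log-scale alternatives, but its call was lost in several. The adjusted p was 0.0501 after quantile normalization, 0.139 with a lower floor, 0.14 without a filter on dim probe sets and 0.0824 with the replicate number as a block. It was 0.112 without GFP vehicle replicate 2, 0.0973 and 0.415 without GFP T0901317 replicates 1 and 2, and 0.0716 and 0.288 without LXRα vehicle replicates 1 and 2. It passed when the β-actin ratio was a term of the fit (adjusted p = 0.00844).

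**Figure D1:**
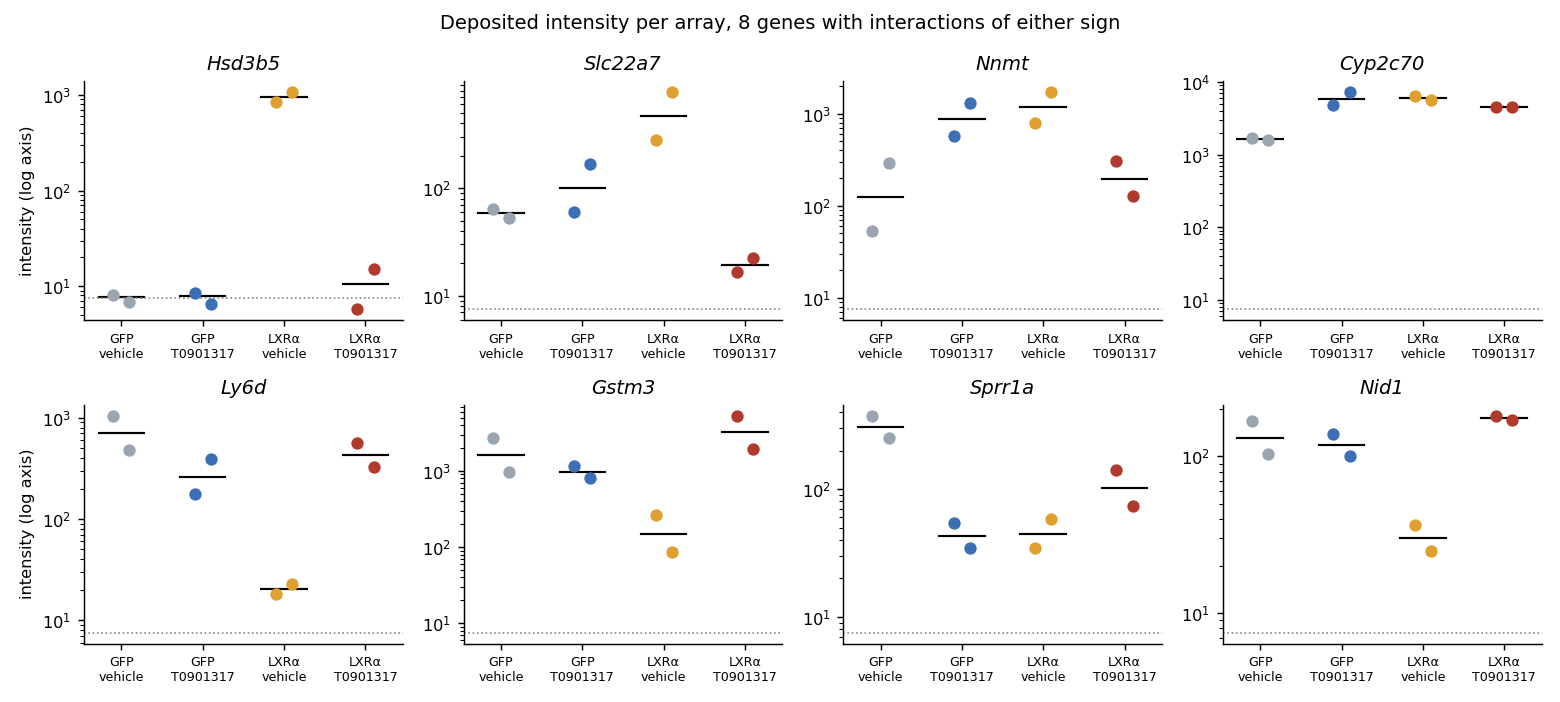
Deposited intensity on a log axis for each of the 8 arrays, in 8 genes with interactions of either sign. Points are arrays, black lines are geometric means of each group after the floor, and the dotted line is the floor of 7.50. LXRα vehicle is the group apart in Hsd3b5 (high) and in Ly6d, Gstm3 and Nid1 (low), while GFP vehicle is apart in Cyp2c70 (low) and Sprr1a (high).

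The question which group carries a non-additive pattern was answered gene by gene. A group was taken to carry it where its mean was the highest or lowest of the 4 and lay farther from the nearest other mean than the other 3 means lay from each other. Candidates were the 72 genes of 9359 with an unadjusted p under 0.01, at least 1 group mean of log2 6 or more, and agonist differences between single arrays that did not overlap between transgenes. Such differences lay apart without overlap, upward in 7.27% and downward in 8.76% of all genes. Genes with larger interactions but more spread, such as Saa2 at -4.79 or Gsta2 at 4.75, are not among the 72. These 72 were selected on the interaction itself, so the counts below describe them and test nothing.

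Of the 72 candidates, LXRα vehicle carried 26, GFP vehicle 14, LXRα T0901317 4 and GFP T0901317 1, and no single group carried 27. The vehicle groups together carried 40 and the agonist groups 5. Over all 9359 genes the vehicle groups carried 28.7% and the agonist groups 18.6%. By group these shares were 16.7% for LXRα vehicle, 12.1% for GFP vehicle, 10.5% for GFP T0901317 and 8.14% for LXRα T0901317. LXRα vehicle was the low group in 18 of the 31 candidates with a positive interaction, and the high group in 8 of the 41 with a negative one. GFP vehicle was the low group in 13 of those 41. The transgene groups lay closer together under T0901317 than under vehicle in 61 of the 72, against 57.3% of all genes. The LXRα T0901317 arrays had the widest spread, as given above, and its part in these counts was not tested.

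The agonist difference had opposite signs in the 2 transgene settings in 58 of the 72 candidates. It was larger with the transgene in 7 and smaller with it in 7. Over all genes the signs were opposite in 29.3%.

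**Figure D2:**
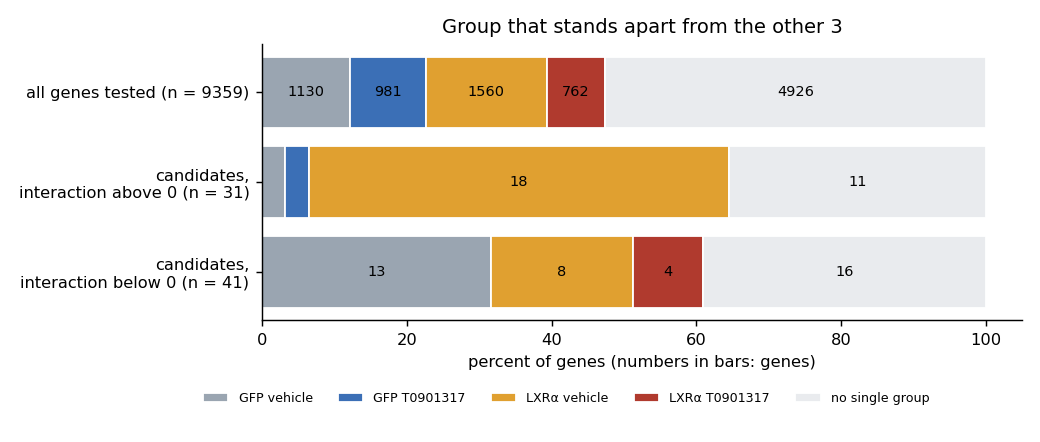
Share of genes, in percent, whose pattern is carried by each group, for all 9359 genes tested and for the candidates of either sign, with the number of genes in the bars. LXRα vehicle carries 18 of the 31 candidates with a positive interaction, and GFP vehicle 13 of the 41 with a negative one.

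Among the candidates, the 12 largest negative interactions included 4 carried by high levels in LXRα vehicle livers, all of them of genes that hepatocytes express. Besides Hsd3b5 these were Cyp7b1, the oxysterol 7α-hydroxylase, at -3.49 (SE 0.96), C8b, a chain of complement component C8, at -2.92 (SE 0.67), and Igfals, the acid-labile subunit that holds IGF-1 in plasma, at -2.28 (SE 0.50). Cyp7b1 gave 539 and 230 in GFP vehicle, 399 and 453 in GFP T0901317, 1267 and 3895 in LXRα vehicle, and 152 and 374 in LXRα T0901317 livers. Both its LXRα vehicle arrays stood above all others, and its other probe set gave -3.82. C8b gave 741 and 1662 in LXRα vehicle livers and 209 to 504 on the other 6 arrays. Igfals gave 154 and 243 in LXRα vehicle livers and 35.3 to 90.1 elsewhere. Adjusted p for these 3 lay between 0.906 and 0.957.

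Slc22a7, an organic anion transporter of the hepatocyte, had 2 groups apart. Its intensities were 64.3 and 53.2 in GFP vehicle, 60.4 and 167 in GFP T0901317, 279 and 784 in LXRα vehicle, and 16.5 and 22.6 in LXRα T0901317 livers. LXRα vehicle was above and LXRα T0901317 below all other arrays, with an interaction of -5.38 (SE 0.86, adjusted p = 0.755). Nnmt, nicotinamide N-methyltransferase, was high with either single treatment and not with both. It gave 52.4 and 293 in GFP vehicle, 572 and 1319 in GFP T0901317, 793 and 1725 in LXRα vehicle, and 303 and 128 in LXRα T0901317 livers. The groups with neither or both treatments overlapped each other and lay below the groups with 1, and the interaction was -5.38 (SE 1.26, adjusted p = 0.906).

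Cyp2c70, the P450 that makes muricholic acids in mice, had 1 low group and 3 similar ones. GFP vehicle livers gave 1701 and 1584, and the other 3 groups gave 4736 and 7267, 6320 and 5634, and 4512 and 4463, in the order GFP T0901317, LXRα vehicle, LXRα T0901317. Transgene alone was 3.63-fold and agonist alone 3.57-fold above GFP vehicle. The separate differences predict 21300 for the combination, against a geometric mean of 4490, an interaction of -2.25 (SE 0.35, adjusted p = 0.694). GFP vehicle carried the pattern here and in Zscan26, a zinc finger protein, at -2.01 (SE 0.53). The remaining genes, none carried by 1 group, were Saa4, a serum amyloid A, at -2.58, Ddit4, an inhibitor of mTORC1 signalling, at -2.27, Hal, histidine ammonia-lyase, at -2.13, and Kcnk5, a potassium channel, at -2.05.

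Stretches before the start of 3 of these genes are shown: Hsd3b5 because it is the called gene, and Igfals and Cyp2c70, chosen after the search, because they hold matches to motifs of nuclear receptors or of growth hormone signalling. The 250 bases upstream of the RefSeq start (GRCm38.p6) are written 5′ to 3′ on the strand of the gene, with capitals for matches on either strand to AGGTCA, the half-site of nuclear receptors, or TTCNNNGAA, the core of STAT5 sites. The windows are chr3:98645535-98645784 (minus strand) for Hsd3b5, chr17:24877981-24878230 (plus strand) for the second of 3 starts of Igfals, and chr19:40187287-40187536 (minus strand) for Cyp2c70.
Hsd3b5: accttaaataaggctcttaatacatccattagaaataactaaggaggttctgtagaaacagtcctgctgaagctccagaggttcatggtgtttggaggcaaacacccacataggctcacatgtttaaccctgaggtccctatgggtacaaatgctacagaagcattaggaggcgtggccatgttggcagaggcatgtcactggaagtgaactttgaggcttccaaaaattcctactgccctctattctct
Igfals: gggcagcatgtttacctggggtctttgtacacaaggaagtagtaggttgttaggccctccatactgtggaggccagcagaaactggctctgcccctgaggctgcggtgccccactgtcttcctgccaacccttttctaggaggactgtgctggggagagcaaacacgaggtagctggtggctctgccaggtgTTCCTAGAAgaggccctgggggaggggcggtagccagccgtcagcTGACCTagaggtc
Cyp2c70: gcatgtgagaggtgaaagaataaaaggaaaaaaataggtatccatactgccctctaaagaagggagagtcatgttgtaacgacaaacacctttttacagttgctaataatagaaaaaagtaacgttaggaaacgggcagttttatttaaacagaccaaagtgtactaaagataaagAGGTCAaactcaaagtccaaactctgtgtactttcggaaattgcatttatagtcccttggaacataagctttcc

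The Igfals window holds a STAT5 match that begins 58 bases before the start and a half-site 13 bases before it, the Cyp2c70 window a half-site 74 bases before it, and the Hsd3b5 window neither. Of the 42 leading genes and LXR targets, 33 had a window, and 8 of these held a half-site, against 15.8% of the 27025 genes with a window. A STAT5 match was found in 1 of the 33, against 8.13%. The LXR-type element DR4, 2 half-sites spaced by 4 bases, was searched only in its exact letters (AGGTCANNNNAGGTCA). These were found in 0 of the 33 genes and in 4 of the 27025. A match is so rare that its absence says nothing about LXR elements with other letters. These are matches of letters and no measured binding.

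Among the candidates, the 12 largest positive interactions included 6 carried by low levels in LXRα vehicle livers. Ly6d, a GPI-anchored surface protein, gave 1051 and 476 in GFP vehicle, 175 and 389 in GFP T0901317, 18.2 and 22.6 in LXRα vehicle, and 565 and 324 in LXRα T0901317 livers. Its LXRα vehicle arrays lay far below the other 6, and the interaction was 5.84 (SE 0.75, adjusted p = 0.45), 6.24 with LXRα T0901317 replicate 1 and 5.44 with replicate 2. Gstm3, a glutathione transferase, gave 2672 and 984 in GFP vehicle, 1177 and 810 in GFP T0901317, 263 and 87.2 in LXRα vehicle, and 5336 and 1951 in LXRα T0901317 livers. LXRα vehicle was again the low group, with an interaction of 5.15 (SE 1.04, adjusted p = 0.906). Glutathione transferases of the mu class are close in sequence, and whether this probe set separates them was not tested.

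Nid1, a basement membrane protein, gave 36.5 and 24.9 in LXRα vehicle livers and 101 to 182 on the other 6 arrays, with an interaction of 2.71 (SE 0.46, adjusted p = 0.786). Col3a1, a fibrillar collagen, gave 215 and 146 in LXRα vehicle livers and 461 to 1421 elsewhere, at 2.86 (SE 0.79). A second, dim probe set of Col3a1 gave 0.02. Acot9, a mitochondrial acyl-CoA thioesterase, and 2010003K11Rik completed this set at 2.76 and 2.69.

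Sprr1a, a precursor of the cornified envelope, was instead carried by GFP vehicle, where it gave 375 and 250 against 34.4 to 140 on the other arrays. Transgene alone and agonist alone went with levels 6.85-fold and 7.10-fold lower, and the combination with a geometric mean of 102, an interaction of 4.01 (SE 0.62, adjusted p = 0.694). No single group carried Tnfrsf12a, the TWEAK receptor, at 3.60, Anxa2, annexin A2, at 3.58, Mgst3, a microsomal glutathione transferase, at 3.15, Mmp12, the macrophage elastase, at 3.10, or Srxn1, sulfiredoxin, at 2.71. Other probe sets disagreed for Anxa2 (0.35), Mgst3 (-0.02) and Srxn1 (-0.44, 1.34 and 3.12). Tnfrsf12a differed widely between the LXRα T0901317 arrays, at 186 on replicate 1 and 35.9 on replicate 2.

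**Figure D3:**
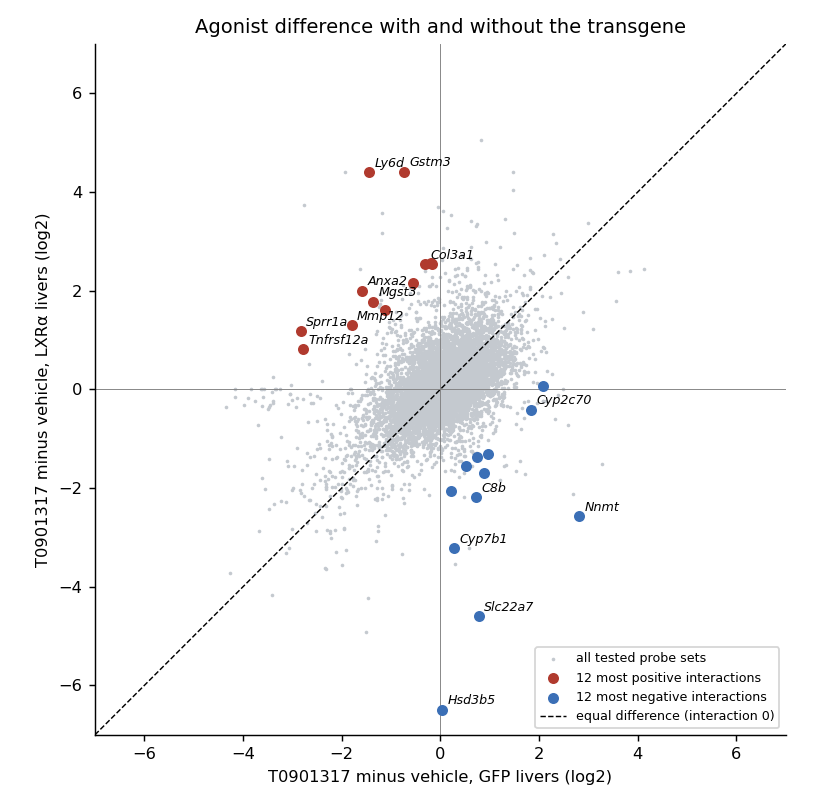
T0901317 minus vehicle in GFP livers against the same difference in LXRα livers, both on the log2 scale, for the 15838 probe sets tested. The axes share no arrays, the dashed line marks equal differences, and the 12 most positive and 12 most negative interactions among the 72 candidates are coloured, some probe sets outside the candidates being more extreme: 23 of these 24 genes have agonist differences of opposite sign.

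LXR target genes lay in both directions. Over all 9359 genes, 4323 had an interaction above 0 and 5036 below, which is the background of this and the other lists. Of the 18 measured, 10 had an interaction above 0 and 8 below, with a median of 0.22 against -0.03 over all genes, and none was called. At an unadjusted p under 0.05 there were 1 above and 2 below 0, where 2.37% and 2.61% of all 9359 genes lay. Agonist differences between single arrays lay apart without overlap, upward in 5 and downward in 4 of the 18, against 7.27% and 8.76% of all genes. The median was 0.40 with LXRα T0901317 replicate 1, 0.03 with replicate 2, and -0.06 without LXRα vehicle replicate 2.

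Cyp7a1, Abcg5, Abcg8 and Srebf1, whose means were higher with either single treatment, lay below the combined prediction. Cyp7a1, which catalyses the first and limiting step of bile acid synthesis, gave 77.8 and 68.2 in GFP vehicle, 713 and 543 in GFP T0901317, 220 and 232 in LXRα vehicle, and 412 and 671 in LXRα T0901317 livers. GFP vehicle was lowest without overlap, and the 2 agonist groups overlapped each other. The separate differences predict 1930 against an observed 526, an interaction of -1.88 (SE 0.42, adjusted p = 0.906). Its other probe set gave -2.02. Abcg8 and Abcg5, which together export sterols into bile, had interactions of -1.06 (SE 0.40) and -0.91 (SE 0.49). Abcg5 was at -0.44 without LXRα vehicle replicate 1 and -1.38 without replicate 2. Abcg8 gave 126 and 107 in GFP vehicle, 386 and 325 in GFP T0901317, 355 and 247 in LXRα vehicle, and 497 and 377 in LXRα T0901317 livers. GFP vehicle again carried the pattern, the other groups overlapping in part. Srebf1, which encodes SREBP-1, had an interaction of -1.16 (SE 0.69), with GFP vehicle as the group apart, at 1575 and 644 against 1989 to 4592. It was -1.81 without GFP vehicle replicate 1, -0.52 without replicate 2 of that group, and -0.66 with LXRα T0901317 replicate 2 alone. Mlxipl, the carbohydrate response factor ChREBP, had -0.88 and Ttc39b, an LXR target of sterol handling, -0.76, with no single group apart; without GFP vehicle replicate 2 Mlxipl was at -0.52, and without replicate 1 Ttc39b was at -0.35.

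Pltp and Lpl showed the other pattern, in which LXRα vehicle was low. Pltp, the phospholipid transfer protein, gave 3055 and 2888 in GFP vehicle, 3358 and 3604 in GFP T0901317, 1505 and 821 in LXRα vehicle, and 3869 and 4880 in LXRα T0901317 livers. Its LXRα vehicle arrays were the lowest and its LXRα T0901317 arrays the highest. The interaction was 1.74 (SE 0.44, adjusted p = 0.957), and 2.30 for its other probe set. Lpl, lipoprotein lipase, gave 1161 and 288 in LXRα vehicle livers and 1440 to 2777 elsewhere, at 1.86 (SE 0.82), and 2.28 for its other probe set. LXRα vehicle replicate 2 weighed heavily, since without it the interaction of Lpl was 0.86 and that of Pltp 1.30. Smpdl3a, a phosphodiesterase, at 0.97 and Abcg1, a sterol exporter of macrophages, at 0.50 were also lowest in LXRα vehicle livers, and Smpdl3a was at 0.45 without replicate 2 of that group.

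Rnf145, a ubiquitin ligase, followed the agonist, with 107 and 94.2 in GFP vehicle, 297 and 357 in GFP T0901317, 94.1 and 79.4 in LXRα vehicle, and 482 and 386 in LXRα T0901317 livers. All agonist arrays were above all vehicle arrays, and the interaction was 0.62 (SE 0.34). Abca1, the cellular cholesterol exporter, had -0.23 (SE 0.37), but its other probe sets gave -0.81 and 1.25. The remaining interactions were 1.13 for Apoc2, 0.43 for Mylip, 0.36 for Scd1, 0.33 for Lpcat3, 0.11 for Apoe and -0.21 for the mouse Nr1h3 gene, each less than 2 SE from 0. Mouse Nr1h3 gave 62.6 to 218 over the 8 arrays. Its probe set was made for the mouse transcript and whether it reads the human transgene was not tested, so transgene levels were not measured here.

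**Figure D4:**
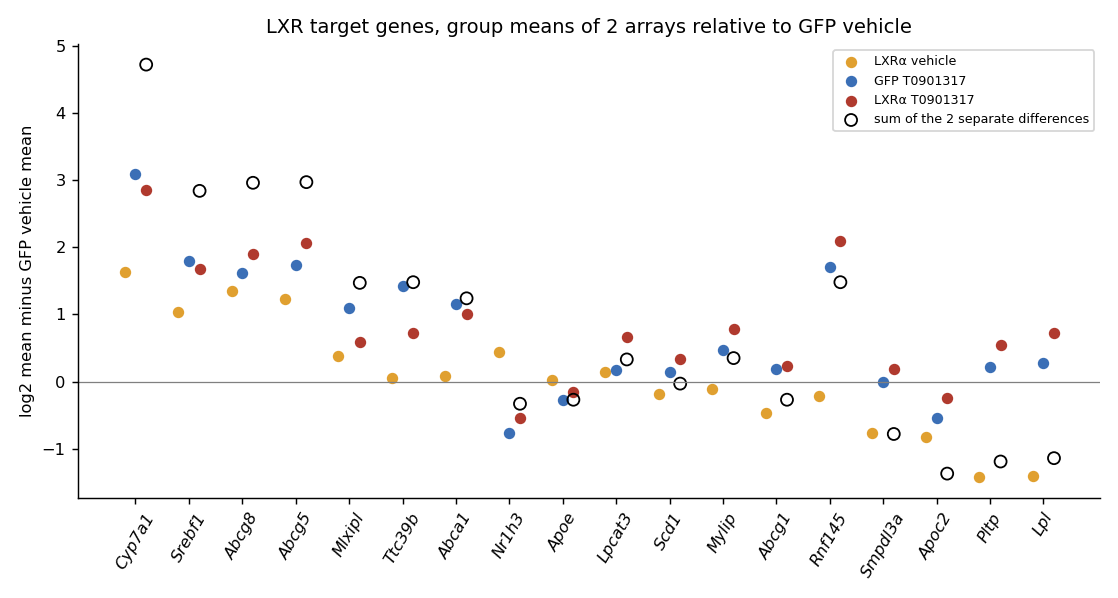
Group means of 18 LXR target genes on the log2 scale, relative to the GFP vehicle mean, with open circles for the level that the 2 separate differences predict for the combination. From Cyp7a1 to Nr1h3 at the left, the LXRα T0901317 mean lies below its open circle; from Apoe to Lpl at the right it lies above.

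Genes of bile acid synthesis and transport leaned below 0. Of 21 tested, 16 were below 0. At an unadjusted p under 0.05 there were 7 below and 0 above 0, against 2.61% and 2.37% of all genes. The median was -0.47, and -0.71 without LXRα vehicle replicate 2. Beside Cyp7b1, Cyp2c70 and Cyp7a1, the bile acid importer Slc10a1 had -1.61, the canalicular bile salt pump Abcb11 -1.16, the organic anion importer Slco1b2 -0.81 and the bile acid ligase Slc27a5 -0.68. Without GFP vehicle replicate 2 Abcb11 was at -0.77. LXRα vehicle carried 6 of the 21 and GFP vehicle 3, where they carried 16.7% and 12.1% of all 9359 genes.

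The list of sex-biased and growth hormone axis genes had the lowest median, -1.32, with 19 of 20 tested below 0. It holds the called Hsd3b5, and 8 of its genes were below 0 at an unadjusted p under 0.05, against 2.61% of all genes. Further members were Egfr, the growth factor receptor, at -1.85, C6, a complement component, at -1.55, Mup3, a major urinary protein, at -1.20 and Igf1 at -0.73. Growth hormone receptor (Ghr) at -0.42 and Socs2, a feedback inhibitor of its signal, at -0.24 were within 1 SE of 0, and Cyp4a12a, a male-biased P450, was at 0.14. With single arrays left out the sign of these 3 turned, C6 was at -1.03 without LXRα vehicle replicate 2 and Igf1 at -0.42 without LXRα T0901317 replicate 2. The median was -1.62 with LXRα T0901317 replicate 1 and -0.97 with replicate 2. The list was drawn up with earlier results on these arrays known, so its median is no independent evidence.

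Acute phase and inflammation genes also leaned below 0, 22 of 27, with a median of -0.92. At an unadjusted p under 0.05 there were 10 below and 1 above 0, against 2.61% and 2.37% of all genes. Saa2 at -4.79, Lcn2 (lipocalin 2) at -2.64, the chemokine Cxcl1 at -2.31 and the fibrinogen chain Fgb at -1.08 were among the 10. Cxcl1 gave 90.0 and 135 in GFP vehicle, 114 and 145 in GFP T0901317, 140 and 361 in LXRα vehicle, and 80.9 and 34.7 in LXRα T0901317 livers. Its LXRα T0901317 arrays were the lowest, so this group carried the pattern. The endothelial adhesion molecule Vcam1 went the other way at 1.99, and at 1.17 without GFP T0901317 replicate 2. Lcn2 was at -1.70 without LXRα vehicle replicate 2. Genes of glucose metabolism had a median of -0.65, and -0.23 without LXRα vehicle replicate 1. Fbp1, of gluconeogenesis, was also carried by LXRα T0901317 livers, at 4431 and 4376 against 6071 to 9573 (interaction -0.70, SE 0.27).

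Some hepatocyte and chaperone genes were, like Cyp2c70, low in GFP vehicle livers alone. Cps1, the first enzyme of the urea cycle, gave 3548 and 3509 in GFP vehicle and 5830 to 7293 on the other 6 arrays, at -1.0 (SE 0.27). Calr, calreticulin, and Hspa1b, an inducible heat shock protein, were likewise lowest in GFP vehicle, at -0.90 and -2.04. Hspa1b gave 246 and 717 in GFP T0901317 livers and was at -1.26 without replicate 2 of that group. Alb, albumin, had 0.35 (SE 0.25). Lrp1, a lipoprotein receptor, was a gene carried by GFP T0901317, where it gave 880 and 1519 against 479 to 774 elsewhere (-1.45, SE 0.46).

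Genes above 0 included detoxification and lipid oxidation genes. Of 22 genes of xenobiotic metabolism, 14 were above 0, with a median of 0.30. At an unadjusted p under 0.05 there were 5 above 0, against 2.37% of all genes. Gstm1 gave 6979 and 4498 in GFP vehicle, 4104 and 3248 in GFP T0901317, 2509 and 756 in LXRα vehicle, and 6107 and 4711 in LXRα T0901317 livers. LXRα vehicle was lowest, at an interaction of 2.58 (SE 0.77) and 2.29 to 2.81 for 3 other probe sets. Gsta2 was at 4.75, Gsta4 at 2.87 and the exporter Abcc3 at 1.70. Gsta2 gave 700 and 49.4 in LXRα vehicle livers, and was at 2.84 without replicate 2. Without that array Gsta4 was at 1.73, Gstm1 at 1.71 and the list median 0.15. Cyp3a11, the main target of the pregnane X receptor, was at 1.94 (SE 1.2), with LXRα vehicle replicate 2 at 614 and the other 7 arrays at 4158 to 6953, and at 0.42 without that array. Nr1i2, which encodes that receptor, gave 25.5 to 38.6 on all arrays, at 0.19.

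Of 22 genes of fatty acid oxidation and PPARα response, 19 were above 0, with a median of 0.49. At an unadjusted p under 0.05 there were 4 above and 0 below 0, against 2.37% and 2.61% of all genes. The median was 0.82 with LXRα T0901317 replicate 1 and 0.37 with replicate 2. Cpt1a was at 0.20 and Ppara at 0.23, and the 3 below 0 were Cpt2 at -0.30, Acadvl at -0.09 and Angptl4 at -0.04. Cyp4a14, a fatty acid hydroxylase, gave 559 and 1304 in GFP vehicle, 2939 and 783 in GFP T0901317, 128 and 21.9 in LXRα vehicle, and 4023 and 779 in LXRα T0901317 livers. LXRα vehicle was low without overlap, but arrays within groups differed several-fold (4.23, SE 1.60). Plin2, a lipid droplet coat protein, was at 1.87 and Pdk4, an inhibitor of pyruvate oxidation, at 2.26. Without LXRα vehicle replicate 2 Cyp4a14 was at 2.96 and Plin2 at 1.33. Pdk4 rested on LXRα T0901317 replicate 1 in large part, at 3.35 with it and 1.16 with replicate 2. Scd2, a stearoyl-CoA desaturase, led the 22 genes of fatty acid and triglyceride synthesis at 2.56 (SE 0.82), with 95.1 and 35.0 in LXRα vehicle and 607 to 1495 in LXRα T0901317 livers. That list had a median of 0.41, which was 0.0 without LXRα vehicle replicate 2. It had 1 gene above 0 at an unadjusted p under 0.05, against 2.37% of all genes. Sterol synthesis genes had a median of -0.04 and none at that p.

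Cell cycle genes were above 0 in 14 of 15, with a median of 0.77. At an unadjusted p under 0.05 there were 5 above 0, against 2.37% of all genes. Ccnd1, cyclin D1, gave 139 and 137 in GFP vehicle, 165 and 322 in GFP T0901317, 103 and 42.6 in LXRα vehicle, and 671 and 693 in LXRα T0901317 livers. Its LXRα T0901317 arrays were the highest and its LXRα vehicle arrays the lowest, with an interaction of 2.62 (SE 0.67), and 1.80 and 3.32 for its other probe sets. Mcm3, of the replication helicase, was carried by LXRα vehicle at 1.31 and Cdk1, the mitotic kinase, by GFP vehicle at 1.12, both at intensities under 50. Other probe sets of Mcm3 gave 0.07 to 0.86. Interferon response genes had a median of 0.80 with none at an unadjusted p under 0.05, and the median was 1.59 with LXRα T0901317 replicate 1 and 0.23 with replicate 2.

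Markers of macrophages and of matrix-producing cells had the highest medians. Of 18 macrophage markers, 17 were above 0, with a median of 1.09, and 5 at an unadjusted p under 0.05, against 2.37% of all genes. C1qc, a complement component of Kupffer cells, gave 979 and 889 in GFP vehicle, 434 and 643 in GFP T0901317, 433 and 229 in LXRα vehicle, and 809 and 557 in LXRα T0901317 livers, an interaction of 1.91 (SE 0.54). The groups overlapped except that GFP vehicle was highest and LXRα vehicle lowest. Fcgr1, an IgG receptor, was at 2.92, Cd68 at 3.15, and Spi1, the transcription factor PU.1, at 1.06. Lower on the list were Clec4f at 0.47, Vsig4 at 0.38, Csf1r at 0.35 and Msr1 at 0.16. Marco was at -0.95, and at -3.95 and 2.04 without GFP T0901317 replicates 1 and 2. Of 18 stellate cell and matrix markers, 15 were above 0, with a median of 1.07. At an unadjusted p under 0.05 there were 6 above and 1 below 0, against 2.37% and 2.61% of all genes. Array differences lay apart without overlap, upward in 11 and downward in 1, against 7.27% and 8.76% of all genes. Col4a2, a basement membrane collagen, was at 1.41, Sparc at 1.80 and Pdgfrb at 1.11. Lrat, Reln and Des of this list were near 0, at 0.20, -0.01 and -0.06. Fn1, fibronectin, which hepatocytes also secrete, was at -1.58, and at -0.35 for its other, dimmer probe set. LXRα vehicle carried 8 of the 18 macrophage and 10 of the 18 matrix markers, and LXRα T0901317 0 and 1. Over all 9359 genes these groups carried 16.7% and 8.14%.

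The summed intensity of the 18 macrophage markers was 17501 and 18252 in GFP vehicle, 11732 and 20073 in GFP T0901317, 12163 and 4912 in LXRα vehicle, and 14239 and 13190 in LXRα T0901317 livers. LXRα vehicle replicate 2 was the lowest array, and without it the median interaction of the macrophage markers was 0.48, that of the matrix markers 0.93, and Fcgr1 was at 1.83, Cd68 at 1.61 and Sparc at 1.14. Vsig4, Csf1r and Msr1 were below 0 without that array, at -0.58, -0.20 and -0.13. Cd68 gave 64.3 and 6.85 in LXRα vehicle livers, the latter below the floor. The matrix sum was 4498 to 5958 in LXRα vehicle and 4894 to 8339 in the other groups, which overlap. Of the LXRα vehicle sums, 2388 and 4192 were Fn1. Without Fn1, a choice made after seeing the data, the other 17 matrix markers summed to 2110 and 1767 in LXRα vehicle livers and to 3238 to 5607 on the other 6 arrays, with no overlap. No probe set of the table was at 0. Like these markers, Nid1, Col3a1 and the other positive interactions carried by LXRα vehicle were lowest there, and the part of the marker levels in them was not tested. In whole liver RNA, fewer cells of a type and less RNA per cell cannot be told apart. The summed hepatocyte markers were 109190 to 139022 on all arrays. The endothelial median was 0.14, with Lyve1, a sinusoidal receptor, at 1.69; the lymphocyte median was 0.04 and the erythroid median -0.12. Of the 5 tested genes listed as ductal markers, Sprr1a and Ly6d had the values above while Sox9, Epcam and Cftr were at 0.49, -0.30 and -0.10. Whether Sprr1a and Ly6d mark ductal cells here was not tested.

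**Figure D5:**
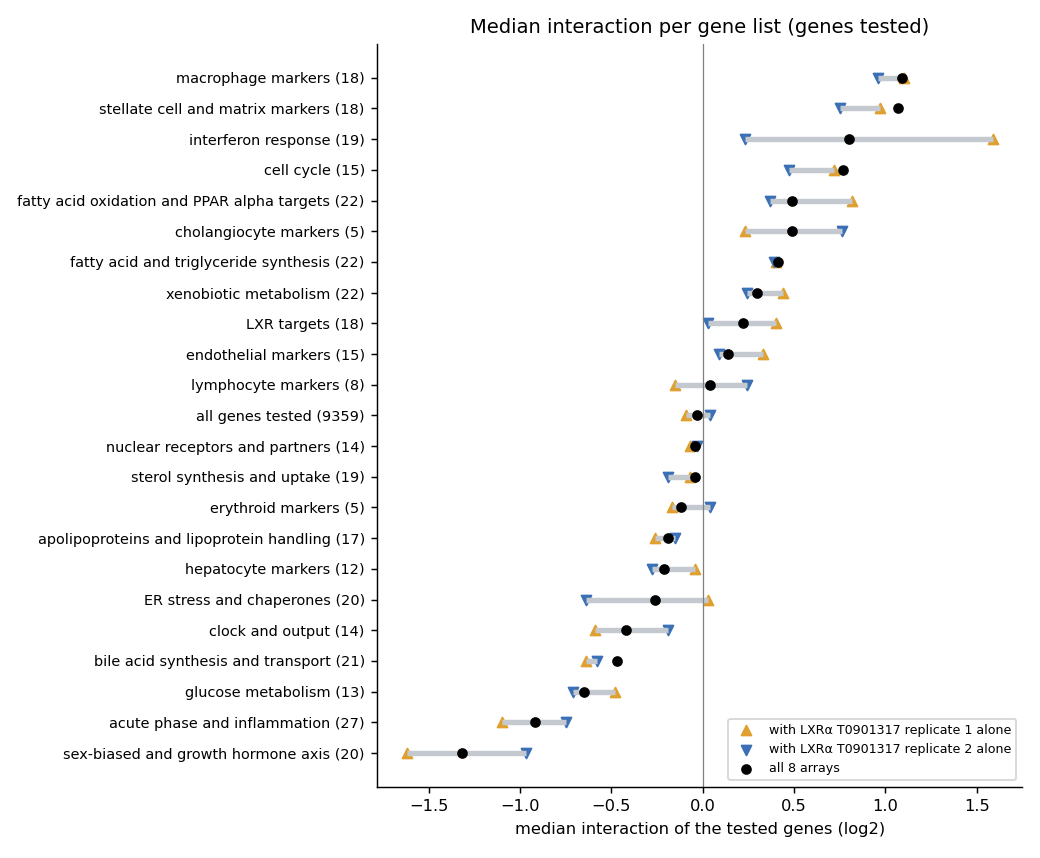
Median interaction of each gene list on the log2 scale, with the number of genes tested, from all 8 arrays and with either LXRα T0901317 replicate alone. The list of macrophage markers has the highest median, 1.09, and the sex-biased and growth hormone axis list the lowest, -1.32; the interferon list differs most between the replicates, 1.59 against 0.23.

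The retinoid X receptor gene Rxra had an interaction of -0.95 (SE 0.54), with 209 on LXRα T0901317 replicate 2 against 386 to 781 on the other 7 arrays, and was at -0.39 with LXRα T0901317 replicate 1 alone. The 14 nuclear receptors and cofactors tested had a median of -0.04 and none at an unadjusted p under 0.05. Apolipoprotein genes had a median of -0.19, clock genes -0.42 and chaperones -0.26, the last at 0.03 with LXRα T0901317 replicate 1 and -0.64 with replicate 2.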

How the data were processed

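RNA from 8 mouse livers was hybridised to Affymetrix arrays, 1 per mouse. The deposited table gives 1 intensity per probe set and array, on a linear scale as read from its values; how the authors summarised and scaled it is not given in the sources used here. Of 22690 probe sets, 64 controls were left out, and 20380 of the rest had 1 gene symbol in the platform table, 691 several and 1555 none; 20351 symbols were updated through RefSeq. Values below 7.50, the 20th percentile, were set to it before log2 was taken. Array medians spanned 0.141, under the tolerance of 0.2, so no further scaling was applied. The test took probe sets whose mean exceeded the 30th percentile.

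One limma 3.58.1 model (R 4.3.3) with 4 group means, an intensity trend, 4 residual and 2.93 prior degrees of freedom gave the interaction and the simple differences. Benjamini-Hochberg adjustment ran over all 15838 probe sets. SE are limma's moderated ones. Where several probe sets of 1 symbol were tested, the brightest stands for the gene. Named are the called probe set, the 12 largest candidate interactions of either sign, all LXR targets, up to 3 genes per other list with the smallest unadjusted p under 0.05, and fixed receptor genes and Alb; further list members with their values were chosen after these were seen. The members and the 22 lists were chosen with earlier results of these data known. A simulation used 10 draws of 15838 probe sets, with 200 changed per draw and normal noise of equal spread in all groups. A true interaction of 2 was recovered in 59.7% and one of 5 in 98.2% of cases, with 9.2 unchanged probe sets called per draw. The data had a wider spread in LXRα T0901317 and 1 call, so these rates need not hold for them. Alternatives were other normalization, floors, filters, spread estimates, array weights, a replicate block, the β-actin ratio, other probe sets, unlogged intensities and each array left out (for list members outside the named genes, from group means and chosen after seeing the data); the lone array was then assumed to vary like the rest.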

Additional observations from a re-analysis of the deposited data

Results flagged for a closer look

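Hsd3b5 was picked out because the test of the difference itself passed: its T0901317 difference was -6.49 on the log2 scale in LXRα livers and 0.03 in GFP livers, an interaction of -6.52. The LXRα vehicle arrays at 846 and 1079 carry it.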

How the results depend on the processing

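The count of interaction calls, 1, became 0 after quantile normalization, 0 with the floor at the 5th percentile and 0 with the replicate block, with 789, 758 and 809 probe sets at an unadjusted p under 0.05 in limma. It was 8 without a filter (2 above and 6 below 0, Hsd3b5 not among them), 2 without an intensity trend and 2 with a β-actin covariate. Leaving out single arrays gave 0 to 24: 24 without GFP vehicle replicate 1, 4 each without GFP T0901317 replicate 1 and LXRα T0901317 replicate 2, 2 each without LXRα vehicle replicate 1 and LXRα T0901317 replicate 1, and 0 without GFP vehicle, GFP T0901317 or LXRα vehicle replicate 2 (674, 575 and 468 at an unadjusted p under 0.05). The cause was not tested. Median centring, the offset, the stricter filter, robust spread, array weights and a threshold of 0.10 kept 1 call. The replicate numbers gave correlations of deviations between groups of -0.138 to 0.247, so they do not pair the samples.

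All 24 leading genes kept their sign in the alternatives run on their own probe set, and all 67 named genes had the same sign on unlogged intensities. Other probe sets reversed Mgst3 (-0.02), Srxn1 (-0.44), Abca1 (1.25) and Rxra (0.01). With single arrays left out, the sign turned for Abca1 (-0.46 to 0.01), Lpcat3 (-0.04 to 0.71), Mylip (-0.28 to 1.14), Apoe (-0.03 to 0.25), Nr1h3 (-0.90 to 0.48) and Nr1i2 (-0.04 to 0.42). Of the 22 list medians, 16 kept their sign; that of LXR targets ranged from -0.06 to 0.40. With 2 arrays per group, their number limits every value.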
